A study of Arabidopsis thaliana with 12 samples.

Results

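The loci described here are the 389 of 36917 loci that the deposited Arabidopsis thaliana table types as other_rna, a gene model type it sets apart from protein-coding and transposable element genes. They were taken by that annotation alone, with no use of expression. By their description in the table, 221 are potential natural antisense genes that overlap a named gene, 16 carry a note of a translated small open reading frame only, 8 are precursors of trans-acting small interfering RNAs, and 144 carry neither and are called unclassified here. RefSeq lists all 389, as lncRNA (219), ncRNA (167) or antisense RNA (3). The label of a long non-coding RNA does not hold for all of them: 23 loci, some of them antisense or precursor loci, are annotated, from ribosome profiling, as holding a translated small open reading frame, and AT2G36307 is ZPR4, which encodes a little zipper protein.

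RNA came from whole plants of 4 genotypes, with 3 libraries each: wild type (Col-0), the single mutants djc31 (SALK_034886) and djc62 (SALK_050913), and djc31 djc62 as the double mutant. The mutated genes, DJC31 and DJC62, encode co-chaperones that combine tetratricopeptide repeats with a J domain, and the series concerns their part in abiotic stress. All plants stood on soil until they had 4 leaves, with days of 16 h light (100 µmol photons per square metre and second, 21 °C) and nights of 8 h (16 °C), and no stress treatment is named. Each single mutant is represented by 1 insertion line, the labels give no line for the double mutant, and they do not say whether replicates were separate sowings. The limma p-values below thus rest on the spread among the 3 libraries of each genotype, pooled over all 4 genotypes, and part of it may be technical.

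Long non-coding RNAs are transcripts that act, where a function is known, as RNA: as decoys for small RNAs, as guides for chromatin or splicing proteins, or as precursors that are cut into small RNAs. In plants the best understood precursors are the TAS transcripts. A microRNA guides their cleavage, RDR6 and SGS3 turn the fragment into double-stranded RNA, and DCL4 cuts it into phased small RNAs that silence other genes. Antisense transcripts overlap another gene on the opposite strand, and their reads can be told from that gene's reads only if the library and the counting keep the strand. For the present counts, the strand setting is not given in the labels used here.

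Libraries held 13.6 to 31.08 M counted reads, of which the 389 loci took 0.145 to 0.202%. Coverage of these loci was thin: 65 had no read in any library, 151 had reads but stayed under a normalised value of 10 in 3 libraries, and 173 were tested. Both mutated genes fell in their own mutants, DJC31 from a mean of 727 to 115 in djc31 and 47.5 in the double mutant, and DJC62 from 516 to 161 in djc62 and 75.7. Organ markers showed leaf tissue in all libraries, with summed values of 982599 or more for 3 leaf genes, and 25.2 or less for 4 root genes, of which RHD6 had no read. The sum of 3 flower genes (AP3, PI and AG) was 42.9 to 68.3 in wild type against 2.65 to 17.9 in the mutants, so flower transcripts moved with the genotype. AP3 had reads in wild type and none in the 9 mutant libraries. The leaf sum also moved, with 982599 to 1104290 in the double mutant, below all other libraries (1244430 or more), and a highest value of 2765580 in djc31. The part of leaf and flower tissue in the results that follow was not tested, and in whole plants fewer cells of a type and less RNA per cell cannot be told apart.

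Loci that lie wholly within others were mostly without reads in the table. Of 381 protein-coding loci whose whole span lies within other loci, 289 (75.9%) had no read, against 2466 of 19473 (12.7%) of those without overlap. Partly overlapped protein-coding loci had no such shortage, with 332 of 6855 (4.84%) without reads. Of the other_rna loci, 25 of 46 (54.3%) were without reads when wholly overlapped, 27 of 208 (13.0%) when partly overlapped and 13 of 135 (9.63%) when not overlapped. In all, 254 of the 389 loci overlap another locus. The genes opposite the antisense loci were often without reads: of the 221 protein-coding partners in the table, 97 (43.9%) had no read, against 3145 of 26931 (11.7%) of all protein-coding loci. One of the partners is RABE1b (AT4G20360), the plastid translation elongation factor Tu, whose span is only partly overlapped. It had 1 read over the 12 libraries, while its antisense locus AT4G20362 had values of 13.4 to 137. Partners without reads thus include partly overlapped genes, such as AMT1;1 and TCP9. A value of 0 at an overlapped locus is given only as listed at 0, and values of partly overlapped loci refer to the reads the authors counted there.

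**Figure D1:**
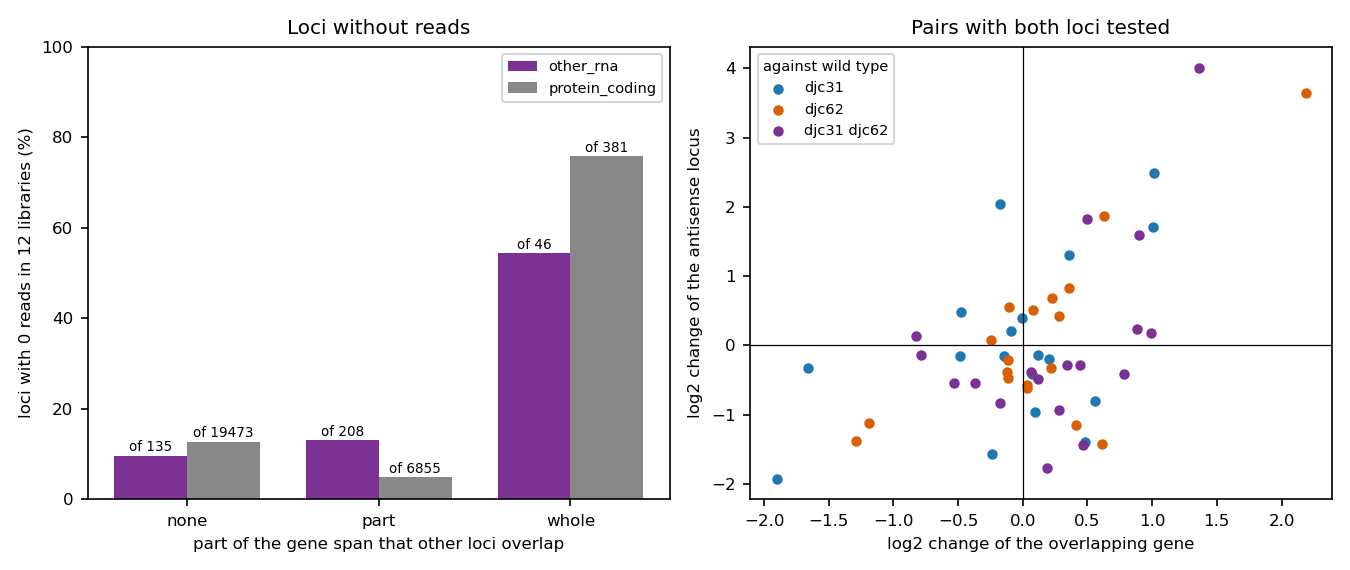
Left, share of loci with no read in 12 libraries (%), for other_rna and protein-coding loci, by how much of their span other loci overlap in RefSeq, with the number of loci above each bar. Right, log2 change of 18 antisense loci against that of the overlapping gene, 1 point per pair and mutant. Wholly overlapped loci were without reads in 54.3% (other_rna) and 75.9% (protein-coding) of cases.

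Of the 173 tested loci, 43, 45 and 39 changed against wild type in djc31, djc62 and the double mutant, by limma on log2(value + 1) with Benjamini-Hochberg adjustment over all 19975 tested loci at 0.05. In djc31, 26 rose and 17 fell (13.3 and 14.2% of all tested loci did so), in djc62 21 rose and 24 fell (13.7 and 13.0%), and in the double mutant 21 rose and 18 fell (13.8 and 15.5%). The share called over all tested loci was 27.5, 26.7 and 29.2% in the same order, so the shares among other_rna loci (24.9, 26.0 and 22.5%) lay near or under this background. The median log2 change of the 173 loci was -0.10, -0.20 and -0.14, beside -0.01, 0.00 and 0.02 over all loci. At 42, 43 and 38 of the called loci the libraries of mutant and wild type did not overlap, beside 25.7, 25.8 and 28.8% of all tested loci that were called without overlap. The balance of rises and falls in djc62 turned with the processing: without wild type replicate 2 there were 29 calls, of which 19 rose and 10 fell. Without a filter on low values 26 rose and 20 fell. It also turned without wild type replicate 3 (20 and 16), djc62 replicate 2 (18 and 16) or 3 (18 and 17). Leaving out any double-mutant library gave 21 and 18. In djc31 the falls numbered 11 without wild type replicate 2. The balance in the double mutant turned too, with 15 rises and 30 falls under quantile normalisation. It was 23 and 24 by DESeq2, and 17 and 19 without wild type replicate 3. Which direction prevailed is thus not settled in djc62 or the double mutant.

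The double mutant was also set against each single mutant. Against djc31, 9 were higher and 22 lower in the double mutant, 17.9% of those tested beside a background of 31.3% (15.3% higher and 16.0% lower). Against djc62, 10 were higher and 10 lower, 11.6% beside 19.7% (9.38% higher and 10.4% lower). Libraries did not overlap at 29 and 20 of these loci, beside 30.4 and 19.6% of all tested loci. Quantile normalisation gave 6 higher and 37 lower against djc31, and 8 higher and 14 lower against djc62. Against djc31, 3, 4 and 3 loci were higher without replicates 1, 2 and 3 of the double mutant, 14 were higher without djc31 replicate 3, and the count in both directions was 19 without replicate 2 of the double mutant. Against djc62 the count was 13 without djc62 replicate 1 (6 higher) and 13, 10 and 13 without replicates 1, 2 and 3 of the double mutant (3, 4 and 6 higher). Of the 173 tested loci, AT5G26146 and AT5G57735 reached the minimum for a test through the double mutant alone. Both are among its higher loci in all 3 comparisons, so these calls are no support for a rise.

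Counts by kind of locus follow the order djc31, djc62 and double mutant, each against wild type. Antisense loci gave 10 rises and 3 falls in djc31, 8 and 7 in djc62, and 7 and 3 in the double mutant, of 69 tested, a share called of 18.8, 21.7 and 14.5% under the 27.5, 26.7 and 29.2% of all tested loci. Unclassified loci gave 16 and 8, 12 and 14, and 13 and 9, of 83 tested (28.9, 31.3 and 26.5% called), near that background. Of 14 tested small open reading frame loci, 3 fell in djc31 and none rose, 1 rose and 1 fell in djc62, and 4 fell in the double mutant (21.4, 14.3 and 28.6% called). Among 7 tested TAS precursors, 3 fell in djc31, 2 fell in djc62, and 1 rose and 2 fell in the double mutant (42.9, 28.6 and 42.9% called). The locus that rose is AT5G57735, which reached the minimum for a test through the double mutant alone, so its call is no support for a rise. TAS4, among the falls in djc31, reached it only through wild type and the double mutant, so that call is no support for a fall. Shares of these 2 kinds rest on few loci. Whether these proportions differ between kinds was not tested.

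**Figure D2:**
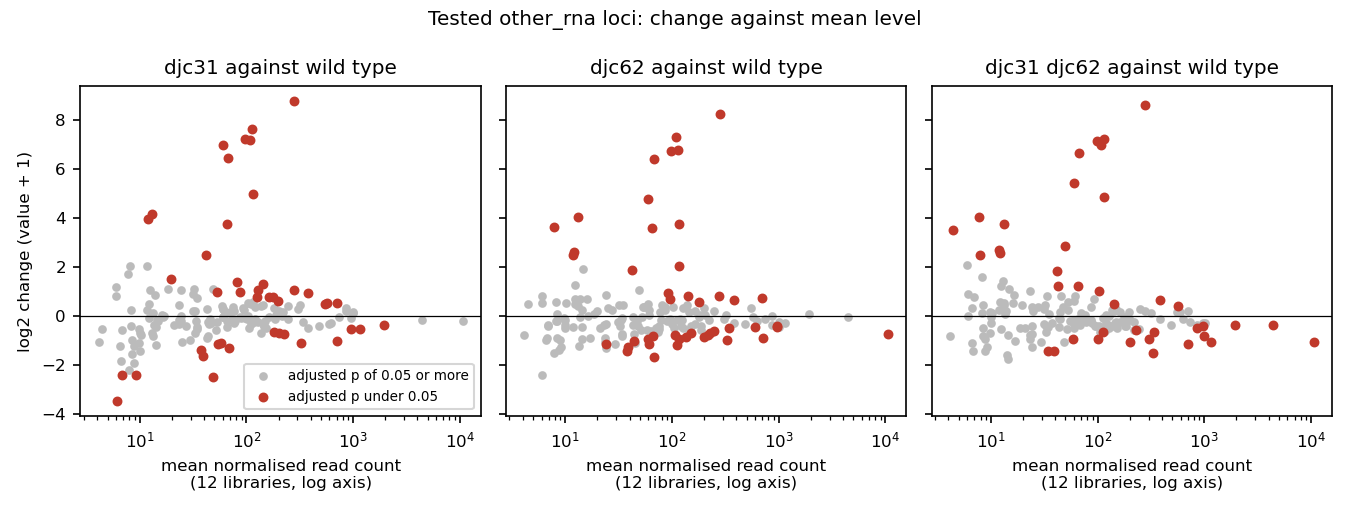
Log2 change on the (value + 1) scale against the mean normalised read count over 12 libraries (log axis) for the 173 tested other_rna loci, in each mutant against wild type; red points have an adjusted p under 0.05. The points above a log2 change of 4 are loci with no or few reads in wild type.

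The largest rises were at loci without reads in wild type. Of the 389 loci, 5 had no read in the 3 wild-type libraries and a value of at least 50 in each of the 9 mutant libraries, 1.29% beside 26 of all 36917 loci (0.0704%). This choice fixes that mutant and wild-type libraries stand apart, so no test is given for them. AT3G27990 on chromosome 3 is an unclassified locus. Its values were 0 in all wild-type libraries, 411, 428 and 453 in djc31, 254, 346 and 300 in djc62 and 400, 380 and 375 in the double mutant. The level was at least 444-fold higher in djc31, 309-fold in djc62 and 397-fold in the double mutant, against a floor of 3 reads over the wild-type libraries, with the djc62 libraries below those of both other mutants.

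The other 4 loci had lower levels in the mutants. AT5G43403, unclassified on chromosome 5, was at 0 in wild type, at 177, 228 and 191 in djc31, at 126, 91.6 and 104 in djc62 and at 168, 137 and 143 in the double mutant. AT3G44798, unclassified on chromosome 3, was at 0 in wild type, at 194, 105 and 144 in djc31, at 217, 139 and 121 in djc62 and at 113, 106 and 161 in the double mutant. AT3G29644 (SORF29), a locus with a translated small open reading frame, was at 0 in wild type, at 133, 142 and 167 in djc31, at 96.7, 104 and 116 in djc62 and at 139, 139 and 136 in the double mutant. It lies antisense to AT3G29642, a transposable element gene without reads in any library. AT4G01593 on chromosome 4, antisense to AT4G01595, was at 0 in wild type, at 65.0, 103 and 93.8 in djc31, at 67.6, 95.8 and 89.3 in djc62 and at 98.9, 104 and 90.4 in the double mutant. The mutant means of these 4 loci lay above wild type by at least 86.8-fold (AT4G01593 in djc62) to at least 204-fold (AT5G43403 in djc31), and the double mutant differed from either single mutant by 1.40-fold at most.

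Of the 10 genes next to these loci 3 had reads. The other 7 were listed at 0 in every library, and 3 of these overlap the locus itself. AT4G01590, beside AT4G01593, had a mean of 276 in wild type and 959, 1003 and 859 in djc31, djc62 and the double mutant, in the same direction as its neighbour but not from 0. AT3G44800, beside AT3G44798, had 51.8 in wild type against 15.6, 12.6 and 24.7 in the 3 mutants, and so lay in the opposite direction. AT3G27970, beside AT3G27990, had 5.70 in wild type and 6.82 to 10.2 in the mutants.

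A further pair of loci was without reads in wild type and had some in each mutant library, at lower or more variable levels. This choice, too, fixes that mutant and wild-type libraries stand apart. The log2 changes of this pair are therefore descriptions, and no test is given. AT1G25098, antisense to AT1G25097, had 183, 49.4 and 214 in djc31, 15.1, 35.6 and 32.3 in djc62, and 42.5, 12.6 and 132 in the double mutant. Its log2 change was 6.98, 4.76 and 5.42. The last was 6.25 without replicate 2 and 4.61 without replicate 3 of the double mutant, while the change in djc31 was 7.64 without its replicate 2. AT5G44569, unclassified, had 10.6, 47.3 and 9.30 in djc31, 31.5, 8.48 and 13.1 in djc62, and 9.55, 16.4 and 11.7 in the double mutant (log2 change 4.17, 4.03 and 3.73), and the change in djc31 was 3.45 without replicate 2. AT2G07042 had few reads in wild type, with values of 2.03, 12.9 and 4.64. It had 188, 198 and 199 in djc31, 75.7, 92.4 and 79.3 in djc62 and 185, 194 and 161 in the double mutant, a rise of 30.0-fold, 12.7-fold and 27.6-fold (limma adjusted p = 4.1e-08, 1.4e-06 and 7.2e-08). Its level in djc62 lay under that of both other mutants in every library.

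**Figure D3:**
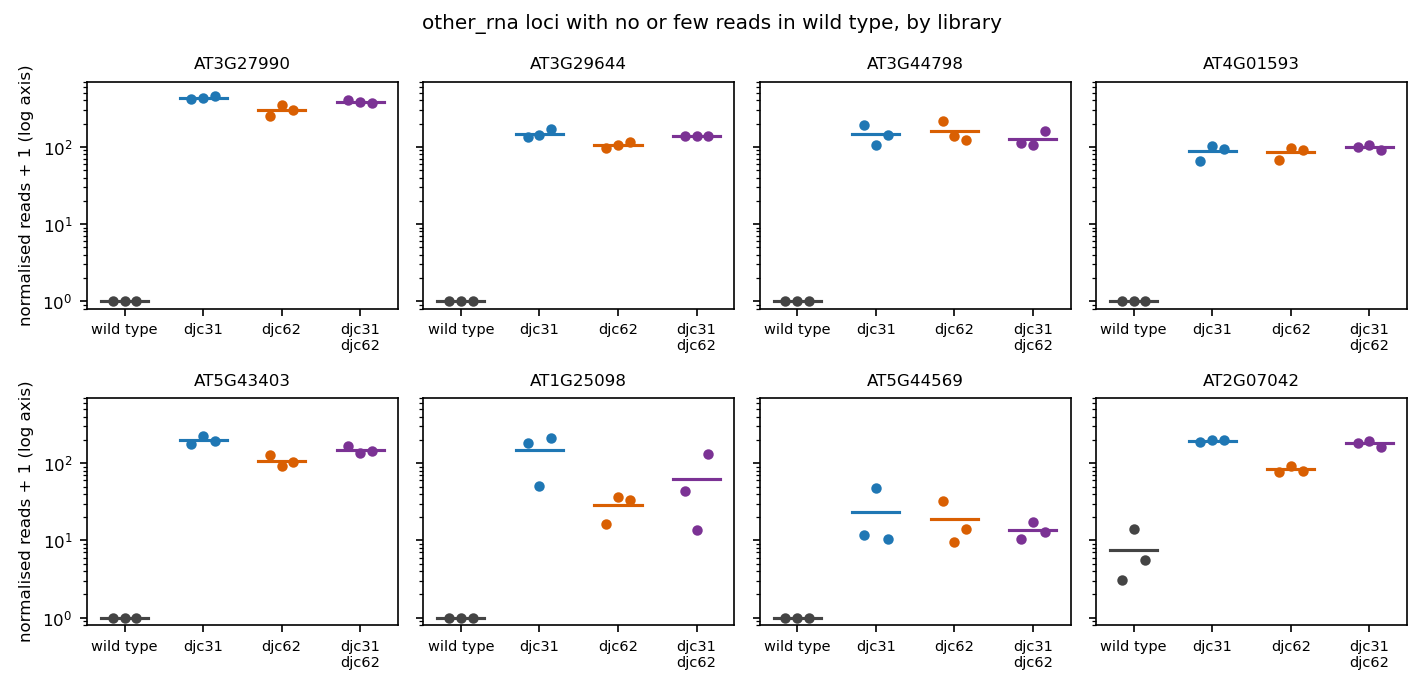
Normalised reads + 1 (log axis) in each library for 8 other_rna loci, with bars at the genotype means; n = 3 libraries per genotype. The 5 loci from AT3G27990 to AT5G43403 sit at 0 reads in wild type and at 65.0 or more in every mutant library, AT1G25098 and AT5G44569 also start from 0, and AT2G07042 has 2.03 to 12.9 in wild type.

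TAS3 (AT3G17185, chromosome 3) fell in every mutant. TAS3 RNA, cut under the guidance of miR390 bound to AGO7, yields small RNAs against the auxin response factors ARF2, ETT (ARF3) and ARF4, a module that acts in leaf polarity and the timing of leaf ageing. Its values were 987, 1107 and 1347 in wild type, 632, 492 and 568 in djc31, 637, 642 and 561 in djc62 and 512, 582 and 444 in the double mutant. All mutant libraries lay below all wild-type libraries. The level was 2.03-fold, 1.87-fold and 2.24-fold lower, with log2 changes of -1.02, -0.89 and -1.16 (SE 0.14 each, limma adjusted p = 3.8e-05, 0.00016 and 1.4e-05), and the double mutant did not pass against either single mutant.

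The targets of the TAS3 small RNAs did not move as 1 group. ETT was at 693 ± 13.9 (SD, n = 3) in wild type and fell to 464 ± 69.2 in djc31 and 407 ± 36.7 in djc62, with 865 ± 48.5 in the double mutant, where its log2 change of 0.32 did not pass (limma adjusted p = 0.0023, 0.00023 and 0.072). ARF2 was at 4262 ± 462 in wild type and rose in djc62 to 6221 ± 734 (limma adjusted p = 0.0041), with 3512 ± 491 in djc31 and 5248 ± 533 in the double mutant that did not pass. ARF4 went from 781 ± 119 to 575 ± 72.0 in djc31 and 1086 ± 50.1 in the double mutant (limma adjusted p = 0.023 and 0.013). The call in djc31 was lost without wild type replicate 1 (adjusted p = 0.14) and without djc31 replicate 1 or 2 (0.062 and 0.075), and that in the double mutant without wild type replicate 2 or 3 (0.056 and 0.050) or replicate 2 of the double mutant (0.056). AGO7 fell in djc31 from 108 ± 6.98 to 41.2 ± 16.5 (limma adjusted p = 0.0008) and was at 116 ± 31.3 in djc62 and 96.6 ± 8.54 in the double mutant.

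A lesser TAS3-type locus behaved differently. AT5G57735 (TASIR-ARF in RefSeq), another source of the ARF-directed small RNAs, had 2.03, 0 and 0 in wild type, no read in djc31, 2.33, 0 and 1.54 in djc62, and 20.8, 13.4 and 13.4 in the double mutant. The double-mutant libraries were above the 9 others, by at least 12.7-fold over djc31. As the locus reached the minimum for a test only through the double mutant, no p-value is given. The third such locus, TAS3b (AT5G49615), stayed under the minimum for a test, with 12.2, 0 and 8.12 in wild type, 2.65, 0 and 0 in djc31, 0, 1.70 and 1.54 in djc62, and 10.4, 6.70 and 7.53 in the double mutant.

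Of the TAS1 and TAS2 precursors, which are cut under the guidance of miR173, TAS1B (AT1G50055) fell in the single mutants. Its values were 284, 326 and 326 in wild type, 211, 125 and 250 in djc31, 179, 192 and 198 in djc62 and 215, 224 and 189 in the double mutant. No mutant library reached the lowest wild-type value. The log2 changes were -0.73, -0.71 and -0.57 (SE 0.21 each, limma adjusted p = 0.014, 0.016 and 0.046). They became 0.062 in djc31 without its replicate 2 and 0.051 in djc62 without wild type replicate 2, and in the double mutant the call was lost when any single wild-type, djc62 or double-mutant library was left out (0.051 to 0.15). TAS1A, TAS1C and TAS2 passed in no comparison, with log2 changes of -0.49 to -0.14 against wild type.

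HTT2, which is silenced by TAS1 small RNAs and acts in heat tolerance, was at 354 ± 33.5 in wild type and fell to 218 ± 4.87 in djc31 and 223 ± 16.2 in djc62 (limma adjusted p = 0.0014 and 0.002), with 308 ± 27.7 in the double mutant. Its relative HTT1 was near the limit of detection, with mean values of 1.08 to 10.4. Among the makers of trans-acting small RNAs, AGO1 rose from 2088 ± 84.0 to 2863 ± 288 in djc62 and 3145 ± 50.6 in the double mutant (limma adjusted p = 0.002 and 0.00022). RDR6, SGS3, DCL4 and DRB4 passed in no mutant against wild type. SGS3 was higher in the double mutant than in djc31 (473 ± 15 against 316 ± 21.1, limma adjusted p = 0.0021).

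TAS4 (AT3G25795) was low throughout. It yields small RNAs against MYB factors of anthocyanin synthesis such as PAP1, and PAP1 in turn activates it. TAS4 had 4.07, 12.9 and 18.6 in wild type, 0 in the 3 djc31 libraries, 0, 2.54 and 1.54 in djc62, and 13.9, 4.46 and 15.1 in the double mutant. The libraries of djc31 and djc62 lay below all those of wild type and of the double mutant. The fall in djc31 was at least 9.47-fold, the value in djc62 did not pass, and the double mutant was at least 8.92-fold above djc31. TAS4 reached the minimum for a test only through wild type and the double mutant, so its calls are no support and no p-value is given. The call in djc31 was lost without wild type replicate 3. That of the double mutant against djc31 was lost without replicate 1 or 3 of the double mutant. PAP1 had 104, 93.2 and 186 in wild type, 10.6, 17.2 and 18.6 in djc31, 23.3, 47.5 and 24.6 in djc62, and 143, 126 and 87.9 in the double mutant. PAP1 was thus low in the same genotypes as TAS4 (log2 change -2.93, -1.98 and -0.06, limma adjusted p = 8.3e-06, 0.00049 and 0.93).

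**Figure D4:**
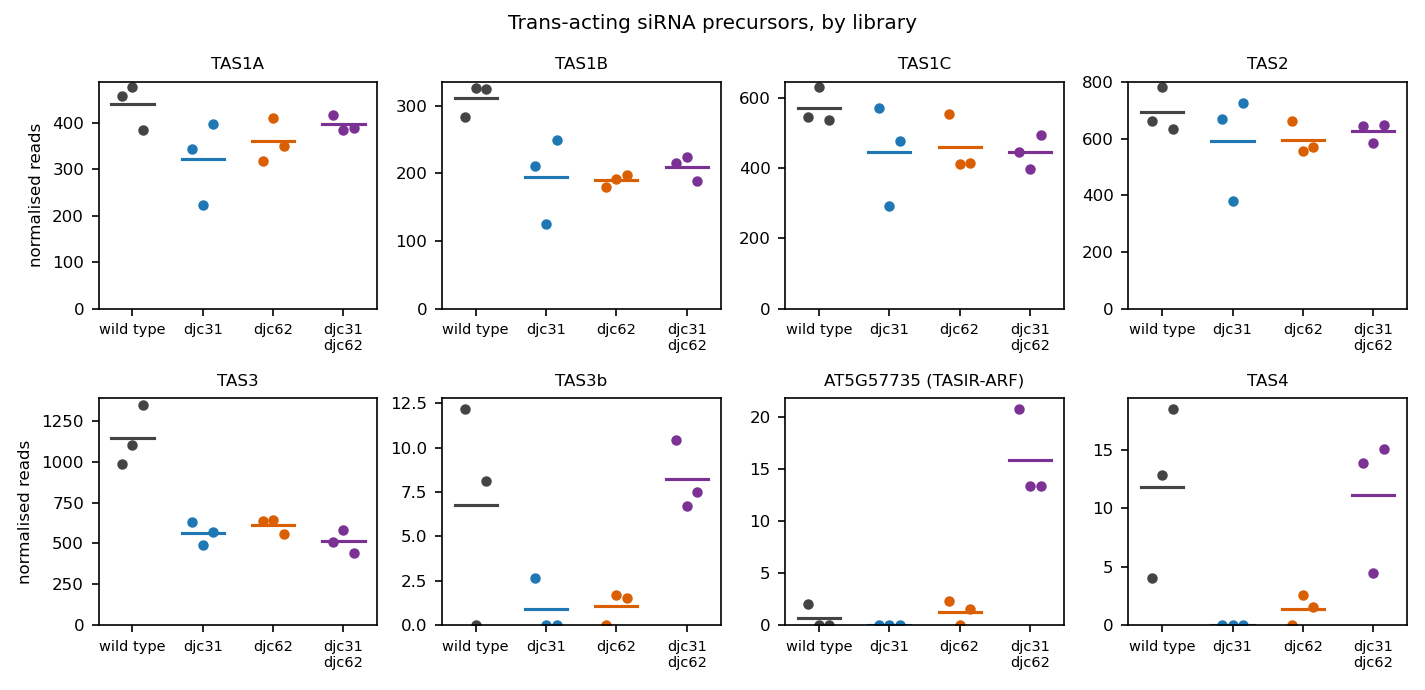
Normalised reads of the 8 TAS precursors in each library, with bars at the genotype means (n = 3 libraries per genotype, axes start at 0). TAS3 lies at 987 to 1347 in wild type and at 444 to 642 in the 9 mutant libraries, while TAS4 is at 0 to 2.54 in both single mutants and AT5G57735 is at 13.4 or more in the double mutant alone.

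The most abundant locus fell in djc62 and in the double mutant. AT4G13495, unclassified on chromosome 4, took 25.4% of all other_rna reads. By RefSeq it spans the genes of 3 microRNAs, MIR850, MIR863 and MIR5026. Its values were 14993, 16817 and 11795 in wild type, 9936, 13466 and 13799 in djc31, 7694, 9774 and 8662 in djc62, and 6839, 7261 and 6312 in the double mutant. The libraries of djc62 and of the double mutant lay below wild type, and those of djc31 overlapped it. It fell 1.67-fold in djc62 and 2.14-fold in the double mutant (limma adjusted p = 0.0012 and 3.7e-05), with a log2 change of -0.23 in djc31 that did not pass. Its share of other_rna reads was 31.2% in wild type, against 27.1, 22.8 and 19.9% in djc31, djc62 and the double mutant.

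RefSeq microRNA genes lie in or across 6 of the 389 loci, of which 4 were tested, while none of the 326 RefSeq microRNA genes is a locus of the table. AT5G26146 overlaps MIR156f, a source of miR156, which holds plants in the juvenile phase. It had 2.03, 3.21 and 6.96 in wild type, no read in djc31, 0, 3.39 and 0 in djc62, and 19.1, 22.3 and 37.7 in the double mutant. All double-mutant libraries were above all others, by 6.48-fold over wild type and at least 21.1-fold over djc31. It too reached the minimum for a test only through the double mutant, and no p-value is given. AT4G30975, which overlaps MIR156b, passed in no comparison.

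Among the loci with a translated small open reading frame, SORF5 (AT3G57157, chromosome 3) stood out by its level in 1 genotype. Its values were 64.0, 53.0 and 75.4 in wild type, 135, 96.7 and 65.9 in djc31, 296, 249 and 236 in djc62, and 44.3, 26.8 and 56.1 in the double mutant. The djc62 libraries were above all others. It rose 4.06-fold in djc62 (log2 change 2.01 ± 0.29, limma adjusted p = 6.7e-05) and was 6.14-fold lower in the double mutant than in djc62 (adjusted p = 1.1e-05) and 2.34-fold lower than in djc31 (adjusted p = 0.0052).

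Several of the more abundant small open reading frame loci were lowest in the double mutant, but not all. SORF15 (AT1G34418) had its highest mean there, above djc31 by a log2 difference of 0.47 (limma adjusted p = 0.025, and 0.12 without djc31 replicate 2). Of the 14 tested loci with only such a note, 1 was higher and 5 were lower in the double mutant than in djc31. SORF22 (AT3G06125), whose RNA is noted as mobile between cells, had 1310, 1363 and 1993 in wild type, 1196, 1094 and 864 in djc31, 1491, 1162 and 1128 in djc62, and 827, 697 and 684 in the double mutant. It fell 2.11-fold in the double mutant against wild type and was 1.71-fold lower than in djc62 (limma adjusted p = 0.00014 and 0.0033). SORF22 also fell in djc31 (log2 change -0.55, limma adjusted p = 0.019, and 0.098 without wild type replicate 3). The double mutant was lower than djc31 as well (log2 difference -0.51, limma adjusted p = 0.027, and 0.095 without djc31 replicate 1). SORF23 (AT3G12965) had 994, 1156 and 1392 in wild type, 1314, 1184 and 1286 in djc31, 1115, 699 and 807 in djc62, and 666, 562 and 779 in the double mutant. It fell in the double mutant against wild type and djc31 (log2 change -0.82 and -0.93, limma adjusted p = 0.0013 and 0.00058), and its djc62 libraries overlapped those of both wild type and the double mutant. SORF17 (AT1G79075) had 302, 343 and 343 in wild type, 506, 354 and 363 in djc31, 433, 234 and 272 in djc62, and 163, 141 and 208 in the double mutant. The double mutant lay below all other libraries, 1.93-fold below wild type and 2.39-fold below djc31 (limma adjusted p = 0.0029 and 0.00043).

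GUT15 (AT2G18440), named for its unstable transcript, had 4956, 5041 and 4526 in wild type, 4647, 3313 and 5323 in djc31, 4486, 4874 and 4761 in djc62, and 3743, 3859 and 3526 in the double mutant. Its log2 change of -0.38 in the double mutant had an adjusted p of 0.039 by limma, which rose to 0.46 under quantile normalisation and to between 0.070 and 0.12 without wild type replicate 1 or 2 or any of the double-mutant libraries. ZPR4, which encodes a little zipper protein of leaf polarity, was at 69.3 ± 23.4 in wild type and 44.3 to 46.8 in the mutant means and passed in no comparison. SORF1, SORF12 and SORF28 also passed in none.

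AT1G67105, unclassified on chromosome 1, was ordered across all 4 genotypes. Its values were 15.2, 14.5 and 20.9 in wild type, 3.98, 0 and 5.07 in djc31, 36.1, 30.5 and 39.3 in djc62, and 102, 240 and 82.0 in the double mutant, so that no library of 1 genotype overlapped another. It fell 5.59-fold in djc31 (log2 change -2.50 ± 0.58, limma adjusted p = 0.0037, and -1.68 without djc31 replicate 2) and rose 8.37-fold in the double mutant (adjusted p = 0.0015). Its level in djc62 did not pass against wild type (log2 change 1.03, adjusted p = 0.21). The double mutant was 46.7-fold above djc31 (adjusted p = 7.7e-06, log2 difference 5.35, and 4.53 without djc31 replicate 2). It was 4.0-fold above djc62 with an adjusted p of 0.037, which ran from 0.075 to 0.21 without any 1 of the djc62 libraries or without replicate 1 or 2 of the double mutant.

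Other unclassified loci separated the single mutants from the double mutant. AT4G40065 had 12.2, 7.23 and 5.80 in wild type, 143, 110 and 114 in djc31, 100, 125 and 95.5 in djc62, and 20.8, 9.67 and 38.5 in the double mutant. It rose 14.6-fold in djc31 and 12.7-fold in djc62 (limma adjusted p = 2.5e-06 and 5.3e-06) and was 5.32-fold and 4.64-fold lower in the double mutant than in these (adjusted p = 0.00025 and 0.00068). The double mutant overlapped wild type, and its adjusted p of 0.034 against wild type ran from 0.080 to 0.20 without wild type replicate 2 or 3 or replicate 1 or 3 of the double mutant. AT2G21188 had 120, 93.2 and 118 in wild type, 50.4, 36.5 and 43.1 in djc31, 26.8, 42.4 and 34.7 in djc62, and 81.6, 86.3 and 83.7 in the double mutant. It fell 2.55-fold in djc31 and 3.19-fold in djc62 (limma adjusted p = 0.00082 and 0.00012), and the double mutant was 1.93-fold and 2.42-fold above them (adjusted p = 0.01 and 0.0021), with no overlap between these groups.

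Loci that fell in all 3 mutants were also seen. AT4G12917 had 535, 560 and 590 in wild type, 268, 204 and 330 in djc31, 330, 258 and 262 in djc62, and 227, 196 and 167 in the double mutant. It fell 2.10-fold, 1.98-fold and 2.85-fold (limma adjusted p = 0.00018, 0.00048 and 8.7e-06), with all mutant libraries below wild type. AT2G42485 was at 303 ± 26.8 in wild type and fell to 170 ± 53.4 in djc62 and 143 ± 15.7 in the double mutant (limma adjusted p = 0.0043 and 0.00091). It was at 185 ± 18.0 in djc31, with an adjusted p of 0.017 that became 0.055 without wild type replicate 3 and 0.052 without djc31 replicate 2. AT1G69252 fell from 1208 ± 68.2 to 838 ± 95.1 in djc31 and 895 ± 81.9 in the double mutant (limma adjusted p = 0.0018 and 0.0081). In djc62 it was at 914 ± 32.2, with an adjusted p of 0.014 that became 0.053 without wild type replicate 3 and 0.050 without djc62 replicate 3.

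AT2G05518 was raised in djc31 alone among the mutants by this test, with 51.8, 52.2 and 55.7 in wild type, 137, 127 and 164 in djc31, 71.1, 45.8 and 119 in djc62, and 42.5, 29.8 and 77 in the double mutant. The djc31 libraries were above all others, at a log2 change of 1.40 ± 0.35 against wild type (limma adjusted p = 0.0058) and with the double mutant lower by a log2 difference of -1.60 (adjusted p = 0.0024). Its difference between djc31 and djc62 was not tested. AT2G15292 was at 868 ± 68.4 in wild type, 1100 ± 141 in djc31, 858 ± 88.8 in djc62 and lowest in the double mutant with 606 ± 55.8, where it fell against wild type and was lower than in djc31 (limma adjusted p = 0.005 and 0.00011).

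**Figure D5:**
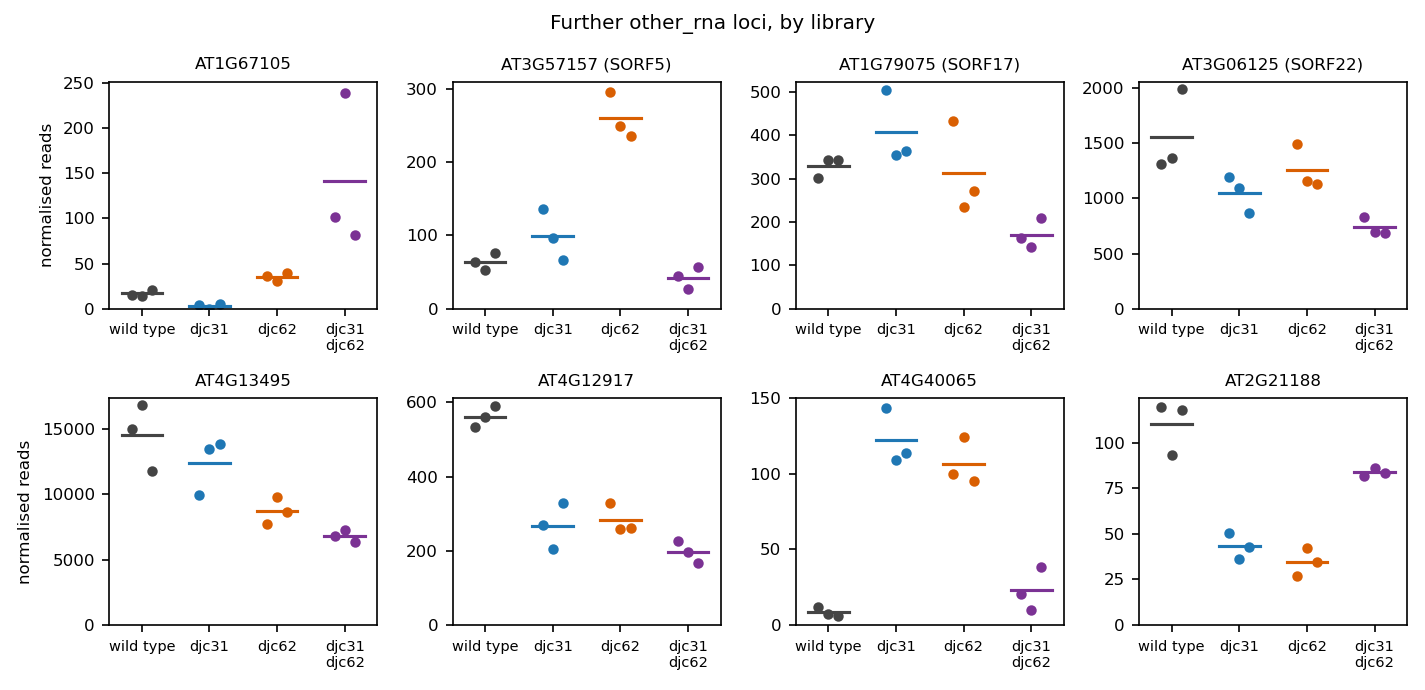
Normalised reads in each library for 8 further other_rna loci, with bars at the genotype means (n = 3 libraries per genotype, axes start at 0). AT1G67105 is highest in the double mutant (82.0 to 240), SORF5 in djc62 (236 to 296), and AT4G40065 in both single mutants (95.5 to 143).

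The antisense loci could be set beside the gene they overlap in few cases. For the 69 tested antisense loci the partner was tested in 18, and of their 65 protein-coding partners 32 (49.2%) had no read. Over these 18 pairs the log2 changes of locus and partner had a Pearson's r of 0.48, 0.73 and 0.50 and a Spearman's rho of 0.28, 0.41 and 0.47 in djc31, djc62 and the double mutant. These are descriptions across genes, which are not independent replicates, and both values of a pair come from the same libraries and may share reads. Of the 18 pairs, both members passed in the same direction in 1 pair in each mutant, and in opposite directions in 1 pair in djc31, 2 in djc62 and none in the double mutant. In djc62 and the double mutant the same-direction pair was AT5G53048 and its partner AT5G53050. AT5G53048 reached the minimum for a test only through these genotypes, so its calls are no support for a shared direction. In djc62 this pair also had the largest rises, with log2 changes of 3.64 and 2.19, and it weighs on Pearson's r.

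AT3G52535 lies antisense to OFP18, a transcriptional repressor of the ovate family. It had 8.13, 5.62 and 27.8 in wild type, 81.0, 49.4 and 74.4 in djc31, 55.9, 33.1 and 43.1 in djc62, and 45.1, 44.6 and 36.0 in the double mutant. All mutant libraries were above wild type (log2 change 2.49, 1.87 and 1.83, SE 0.45 each, limma adjusted p = 0.00047, 0.005 and 0.0057, and 3.12, 2.50 and 2.46 without wild type replicate 3). OFP18 rose in djc31 (log2 change 1.02, adjusted p = 0.0079) and did not pass in djc62 or the double mutant (0.63 and 0.49). AT5G53048 was at 0 in wild type, at 2.65, 0 and 8.45 in djc31, at 10.5, 11.0 and 13.1 in djc62, and at 20.8, 17.9 and 9.20 in the double mutant. It reached the minimum for a test only through djc62 and the double mutant, so no p-value is given for it. Its partner AT5G53050, a predicted hydrolase, rose in all 3 mutants, from 188 ± 51.5 to 381 ± 114, 843 ± 80.9 and 485 ± 123 (limma adjusted p = 0.0027, 1.5e-06 and 0.00024).

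Opposite directions were seen at GT-1, a light-related trihelix transcription factor. Its antisense locus AT1G13448 had 60.0, 79.5 and 39.4 in wild type, 22.6, 15 and 27.9 in djc31, 15.1, 31.4 and 18.5 in djc62, and 46.9, 43.2 and 51.0 in the double mutant. The single mutants lay below wild type (log2 change -1.39 and -1.43, SE 0.37, limma adjusted p = 0.0098 and 0.0088), although these became 0.057 and 0.052 without wild type replicate 2. GT-1 itself rose from 443 ± 14.9 to 622 ± 67.3, 680 ± 23.0 and 604 ± 21.9 in djc31, djc62 and the double mutant (limma adjusted p = 0.0043, 0.00065 and 0.0076).

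At a further pair the locus passed and its partner did not. AT5G05435, antisense to AT5G05430, had 65.0, 102 and 102 in wild type, 281, 187 and 198 in djc31, 177, 131 and 166 in djc62, and 97.2, 84.1 and 122 in the double mutant. It rose in djc31 (log2 change 1.3 ± 0.24, limma adjusted p = 0.00048), and the double mutant was lower than djc31 (-1.12, adjusted p = 0.002). In djc62 the change of 0.83 had an adjusted p of 0.015, which was 0.084 without wild type replicate 1 and 0.056 and 0.057 without djc62 replicates 1 and 3. AT5G05430 had a mean value of 8.22 and log2 changes of 0.36, 0.36 and 0.99 in djc31, djc62 and the double mutant (limma adjusted p = 0.72, 0.73 and 0.27). AT4G20362 (SORF6), opposite RABE1b, passed in no mutant against wild type, but was lower in the double mutant (26.0, 20.8 and 13.4) than in djc31 (96.9, 55.9 and 137), by a log2 difference of -2.17 (limma adjusted p = 0.00091).

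Detection of these RNAs was compared at the depth of the smallest library. At that depth 216 ± 7.51 of the 389 loci were expected to have a read in wild type, and 211 ± 6.64, 224 ± 8.76 and 242 ± 6.98 in djc31, djc62 and the double mutant (SD, n = 3). The exact two-sided permutation p against wild type was 0.4, 0.2 and 0.1, and 0.1 is the smallest p that 3 libraries against 3 allow. Over all loci of the table, the double mutant also had the highest number, 22300 ± 103 against 21618 ± 143 in wild type. At a depth of 13.6 to 31.08 M reads, 1 read was worth a normalised value of 0.744 to 2.15, so a locus listed at 0 may hold up to 2.23 to 6.45 on this scale, by counting error only.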

How the data were processed

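Each deposited value is a normalised signal per locus and library, which the authors made, per the submitters' processing notes, with Trimmomatic, FastQC and featureCounts on TAIR10. Per the file headers, the sheet name refers to DESeq2. The aligner, versions, strand setting and handling of multiply matching reads are not stated in these sources, so loci with near-identical copies are uncertain too. The labels name Trizol, an Illumina Tru-Seq kit and lncRNA-Seq. Values divided by 1 factor per library (0.4655 to 1.3439) gave whole reads for 100% of entries within a tolerance of 0.01.

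Because values were normalised, limma 3.58.1 (R 4.3.3, trend) was run on log2(value + 1), over all 12 libraries with 1 mean per genotype and loci at 10 or more in at least 3 libraries (19975), with Benjamini-Hochberg adjustment. This scale understates changes of low loci, and bounds use 3 reads over a genotype's libraries. edgeR 4.0.16 and DESeq2 1.42.0 on recovered reads were alternatives. edgeR called 5423, 5498, 6006, 6223 and 4181 loci in the 5 comparisons. A non-additive contrast took both single-mutant changes from the double mutant's change. RefSeq (TAIR10.1) served for names and for which loci overlap or neighbour each other. It differs from the files' build, so no coordinates are given, and sequences were not used here.

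Members and lists were chosen with earlier results of these data known. Named loci are those with a symbol or known function, the 8 largest rises and falls per mutant without overlap between libraries (4 between mutants), the 10 most abundant, the antisense loci that changed most, and loci silent in wild type. The fit was tested on simulated data.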

Additional observations from a re-analysis of the deposited data

Results flagged for a closer look

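For 21 of the named loci the change in the double mutant differed from the sum of the changes in both single mutants (limma, adjusted p under 0.05 over all 19975 tested loci). Of the 173 tested other_rna loci 41 (23.7%) passed this contrast, beside 31.2% of all tested loci. Loci listed at 0 in wild type were left aside, since any sum of changes starts from the floor there. Values below are log2 differences, the double mutant's change minus that sum.

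Positive differences, where the double mutant lay above the sum, were largest at 2 thinly covered loci, AT5G26146 beside MIR156f (6.23) and TAS4, AT3G25795 (5.87). The former reached the minimum for a test through the double mutant alone. Both loci had no read in djc31 and few or none in djc62, so the sum of the single-mutant changes lies below the floor. Their differences would be positive at any level of the double mutant and are given only as descriptions. At AT1G67105 the difference was 4.32, with a fall in djc31 and a rise in the double mutant. AT2G21188 (2.61) and AT1G13448, antisense to GT-1 (2.54), fell in djc31 and djc62, while the double mutant did not pass. AT5G24205 gave 2.47, with means of 35.9 in wild type and 21.3, 27.6 and 86.3 in djc31, djc62 and the double mutant. The TAS precursors TAS1B, AT1G50055 (0.87), and TAS3, AT3G17185 (0.75), had similar levels in all 3 mutants. The same was so for AT1G69252 (0.50) and AT5G03285 (1.39). SORF15, AT1G34418 (0.93), had means of 653 in wild type and 528, 475 and 719 in djc31, djc62 and the double mutant.

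Negative differences were led by AT4G40065 (-6.11), raised in both single mutants, and by AT2G07042 (-3.87), whose level in the double mutant was that of djc31. SORF5, AT3G57157, gave -3.22 with its high level in djc62 alone. AT3G52535, antisense to OFP18 (-2.54), was raised in all 3 mutants. AT2G05518 (-2.05) and AT5G05435 (-1.94) rose in djc31 and were near wild type in the double mutant, and SORF6, AT4G20362, gave -1.73. AT2G15128 gave -1.35, with means of 84.3, 99.9, 134 and 62.2 in wild type, djc31, djc62 and the double mutant. SORF17, AT1G79075 (-1.13), and AT2G15292 (-0.84) were lowest in the double mutant.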

How the results depend on the processing

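The counts of changed loci were computed under 22 alternatives: other pseudocounts, filters and scalings, count tests, narrower fits, a replicate block and each library left out. The balance of rises and falls turned in djc62 (21 and 24) without a filter on low values (26 and 20). It also turned without wild type replicate 2 (19 and 10) or 3 (20 and 16). The same held without djc62 replicate 2 (18 and 16) or 3 (18 and 17), or any double-mutant library (21 and 18). In the double mutant (21 and 18) it turned under quantile normalisation (15 and 30) and DESeq2 (23 and 24). There it also turned with only the 2 genotypes compared (23 and 26) and without wild type replicate 3 (17 and 19). Some fits were even, such as edgeR (22 and 22). Leaving out 1 library gave 38 to 49 loci in djc31 (43 with all libraries), 29 to 51 in djc62 (45), 27 to 45 in the double mutant (39), 19 to 37 for the double mutant against djc31 (31) and 10 to 23 against djc62 (20). The low ends past 1.5 times came without wild type replicate 2 in djc62 (29), without replicate 2 of the double mutant against djc31 (19), and, against djc62, without djc62 replicate 1 (13) or double mutant replicates 1, 2 and 3 (13, 10 and 13). Such fits hold fewer samples. The edgeR test gave 45, 45, 44, 30 and 22 loci and DESeq2 49, 51, 47, 35 and 24. Fitting only the 2 genotypes compared gave 32, 44, 49, 28 and 30 loci. Of these, 32 in djc31, 49 in the double mutant and 30 against djc62 lie outside the ranges above. Same-numbered libraries did not deviate together (correlations of -0.151 to 0.106), and the replicate block gave 43, 45, 36, 29 and 18 loci. Of 94 calls of named loci against wild type, 55 held under all 22 alternatives, and 23 comparisons without a call gained one under at least 1. Depth limits loci with few reads, such as TAS4, where 1 library decided calls, and overlap with other genes limits what reads at antisense loci show.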
